A study of Homo sapiens with 6 samples.

Results

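The genes described here are the amino acid transporters of 7 solute carrier families, SLC1, SLC3, SLC6, SLC7, SLC36, SLC38 and SLC43. They were chosen by gene symbol, and those described in full were selected on a mean of at least 1 FPKM over all 6 libraries. FPKM counts the fragments of a gene per unit of transcript length and of sequenced depth, so the levels of different genes can be set side by side. The symbol rule found 62 entries for 59 symbols among 63009 genes, and 27 of them passed the level limit, as did 13993 genes in all. SLC6A15, which stands beside its relatives below, was itself picked for its change between these 2 groups, and its values are therefore a description with no test.

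Cells take up amino acids through carriers that differ in what they carry and in what drives them. Sodium-coupled carriers (SLC1, SLC6 and most of SLC38) concentrate amino acids in the cell, exchangers of SLC7 trade one amino acid for another, and SLC36 and some SLC38 carriers sit on lysosomes. Most light subunits of SLC7 reach the plasma membrane only when bound to the heavy subunit SLC3A2, whereas the cationic carriers SLC7A1 and SLC7A2 work alone. When amino acids run short, the transcription factor ATF4 raises many carrier genes together with amino acid synthesis enzymes.

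The RNA came from IMR90 cells, a line of normal human lung fibroblasts, used at early passage. All 6 libraries are from cells that stably carry the fusion ER:RAS, oncogenic RasV12 controlled by tamoxifen (ERRAS cells, kept at 3% oxygen), and all were collected in mitosis after arrest with 1 µM dimethylenastron, an inhibitor of the spindle motor Eg5, with a mitotic index above 90%. The 3 control mitotic libraries are from uninduced cells and the 3 Ras-induced mitotic libraries from cells given tamoxifen (100 nM according to the labels) for 4 days. The paper's methods state the dose differently, by mass of 4OHT. The uninduced cells carry the same fusion without the inducer, and the groups contain no cells without it.

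The fusion's gene HRAS, whose reads come from the endogenous gene and the construct alike, measured 1174, 1176 and 1140 FPKM in control and 1439, 1847 and 1473 FPKM in Ras-induced mitotic cells. Its fitted log2 difference was 0.44 (standard error 0.11, adjusted p = 0.0431, limma). Depth relative to the first control library, estimated from ratios of very low FPKM values, ranged from 0.848 to 1.17. No read totals were used, so the counting error of a value is unknown. Of the 9 fibroblast markers, all were measured above the level limit, and their summed level was 4944 to 5581 FPKM in control and 3185 to 4415 FPKM in Ras-induced libraries, with COL1A2, THY1 and DCN lower by the test and 6 not called. Of these 6, COL1A1 and COL3A1 also lay lower in every Ras-induced library, with log2 differences of -1.43 and -1.25 (adjusted p = 0.0501 and 0.0553, limma). The median of the 9 was -1.19. The markers did not all move together, as FAP had a log2 difference of 0.83 (adjusted p = 0.087, limma). VIM, PDGFRB and S100A4 were at 0.06, -0.04 and 0.19. Among the 6 mitosis markers, PLK1 and BUB1 were lower, and the sum was 1177 to 1227 FPKM in control and 991 to 1078 FPKM in Ras-induced libraries. Epithelial markers summed to between 11.8 and 21.9 FPKM, mostly KRT5, endothelial markers to at most 0.0988 FPKM with PECAM1 listed at 0, and leukocyte markers to at most 0.194 FPKM with CD3E listed at 0. The 5 neuron and glia markers summed to 5.08 to 6.85 FPKM in control and 8.16 to 10.8 FPKM in Ras-induced libraries, mostly SYT1. The only 1 of the 5 above the level limit, SYT1 was higher, with means of 4.73 FPKM in control and 8.97 FPKM in Ras-induced cells. GFAP lay the other way, with means of 0.495 and 0.251 FPKM. The part of these shifts in any result below was not tested, and in bulk libraries fewer cells of a type and less RNA per cell cannot be told apart.

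Sequence is shown for the start regions of the transporter genes that hold a C/EBP-ATF motif. It was picked for display after several of these genes were seen to share their highest libraries with ATF4 (below). Whether the motif has a part in that pattern was not tested. RefSeq promoters of GRCh38.p14, from 250 bases before to 50 bases after each annotated start, were found for 22 of the 27 genes (38 starts), and SLC43A3, SLC6A15, SLC6A6, SLC7A11 and SLC7A2 had no entry. The letters TGATGNAA, a C/EBP-ATF motif of the kind that ATF4 binds with C/EBP proteins, were searched on both strands, and stand in 6 of the 22 genes (27.3%) against 4.46% of 27305 genes. The 27305 genes are all those with a RefSeq entry (35116 starts) and were not held to the level limit. They are thus no matched background for the 22 genes (38 starts). Genes with several annotated starts have more bases searched, and the motifs and windows were chosen after the values were known. The windows are written 5′ to 3′ on the gene's own strand, with up to 16 bases on either side and the motif in capitals.
SLC1A3, chr5:36596352-36596391, plus strand: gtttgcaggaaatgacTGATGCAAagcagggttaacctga
SLC1A4, chr2:64989376-64989415, plus strand: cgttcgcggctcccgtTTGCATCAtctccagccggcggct
SLC1A5, chr19:46784888-46784927, minus strand: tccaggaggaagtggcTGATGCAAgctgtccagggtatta
SLC38A1, chr12:46266497-46266536, minus strand: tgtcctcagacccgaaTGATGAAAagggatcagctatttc
SLC3A2, chr11:62881720-62881748, plus strand: taatgtgcaggactccTTACATCAgctcc
SLC7A1, chr13:29595658-29595697, minus strand: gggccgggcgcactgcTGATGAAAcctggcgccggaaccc

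In SLC1A4 and SLC3A2 the motif lies on the opposite strand, and the SLC3A2 window ends where its RefSeq entry ends. The other motifs searched were the AP-1 letters TGANTCA, present in 5 of the 22 genes (22.7%) against 9.37% of all genes, and the E-box CACGTG, present in 7 (31.8%) against 8.77%. AP-1 matches were in SLC1A3, SLC36A4, SLC38A1, SLC38A9 and SLC3A2, and E-boxes in SLC1A5, SLC36A1, SLC38A5, SLC38A7, SLC43A1, SLC7A5 and SLC7A7. In the shown windows no AP-1 or E-box match overlapped the C/EBP-ATF letters. A match is a string of letters and not a measured binding site. The promoter of SLC6A9, the glycine carrier that fell after induction, is shown because, on the log2(FPKM + 1) scale with all libraries, SLC6A9 had the largest difference of the altered genes with an entry, just ahead of SLC7A7, and none of these 3 motifs is in its window at chr1:44031413-44031712 on the minus strand.
SLC6A9: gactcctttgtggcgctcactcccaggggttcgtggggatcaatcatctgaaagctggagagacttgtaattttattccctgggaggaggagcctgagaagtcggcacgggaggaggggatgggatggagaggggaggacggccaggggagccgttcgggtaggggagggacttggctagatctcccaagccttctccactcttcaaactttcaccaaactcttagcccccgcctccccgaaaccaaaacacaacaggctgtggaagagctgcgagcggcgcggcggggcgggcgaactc

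SLC6A15 encodes B0AT2, a sodium-coupled carrier of branched-chain amino acids and proline best known from brain. The gene (ENSG00000072041) lies on chromosome 12 of GRCh37 from 85253270 to 85307408, on the minus strand. It measured 2.94, 2.16 and 3.21 FPKM in control and 98.1, 86.4 and 114 FPKM in Ras-induced mitotic cells, or 2.77 ± 0.545 and 99.6 ± 14.0 FPKM (SD, n = 3). Every Ras-induced library was far above every control library, and the ratio of the group means was 36. On the log2(FPKM + 1) scale used for the fit the difference was 4.74, and it ranged from 4.62 to 5.13 over the alternative settings. Its place among the 27 transporters went from 23 of 27 by control mean to 3 of 27 by Ras-induced mean, behind SLC3A2 and SLC1A5. Its share of the summed FPKM of the 27 genes went from 0.386% ± 0.0901 to 13.1% ± 2.39 (SD, n = 3).

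None of the closest relatives of SLC6A15 was measured at a similar level. SLC6A16, an orphan relative, had 0.681, 0.241 and 0.595 FPKM in control and 1.40, 0.527 and 0.139 FPKM in Ras-induced cells, with overlapping groups. SLC6A17, a neutral amino acid carrier of synaptic vesicles, reached at most 0.0105 FPKM in control and 0.145 FPKM in Ras-induced cells. The kidney and gut carriers SLC6A18, SLC6A19 and SLC6A20 lay between 0 and 0.0274 FPKM in every library. SLC6A14, which carries neutral and cationic amino acids, and the neuronal glycine and proline carriers SLC6A5 and SLC6A7 were listed at 0 throughout. Among the SLC6 carriers of amino acids, SLC6A9 was the one other gene above the level limit, and it was higher in control cells.

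**Figure D1:**
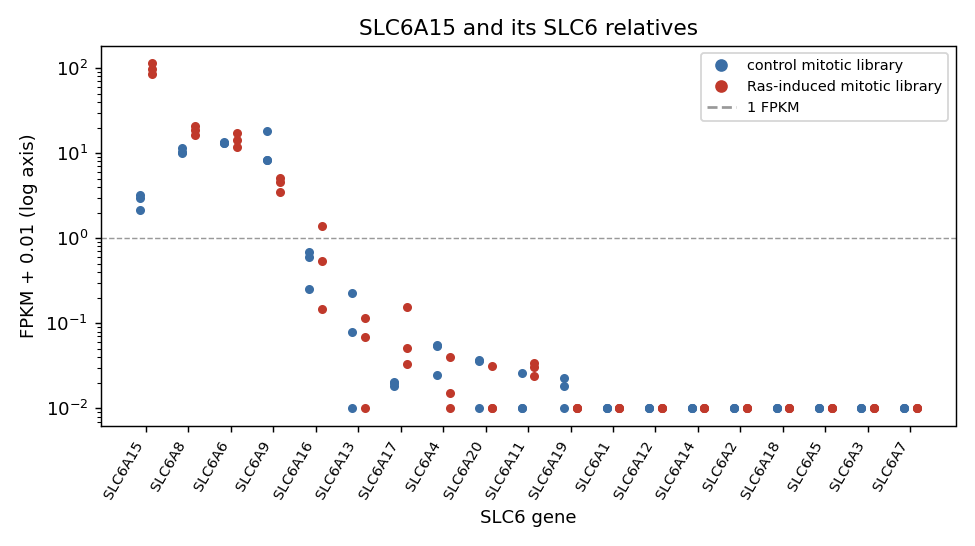
FPKM plus 0.01 on a log axis for the 19 SLC6 genes, with 1 point for each of 3 control (blue) and 3 Ras-induced (red) mitotic libraries. SLC6A15 stands at 86.4 to 114 FPKM in the Ras-induced libraries, while SLC6A16 has the highest mean of the genes whose mean is under 1 FPKM, with 1 Ras-induced library at 1.40 FPKM.

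The remaining 26 transporters were read from the fit across all 13993 genes (limma on log2(FPKM + 1), two-sided, Benjamini-Hochberg adjustment), and a gene with an adjusted p at or under 0.05 is called altered. SLC6A8 and SLC7A7 rose, and SLC7A2, SLC6A9 and SLC7A1 fell. These 5 genes are 19.2% of the 26, beside 16.7% of all tested genes called in either direction, 11.0% higher and 5.67% lower, so the share of altered transporters was near the background. Among all tested genes 1543 were higher and 793 lower, but 1044 and 1109 after quantile normalization, whereas 2 transporters were higher and 4 lower after it. The groups did not overlap for 12 of the 26 (46.2%), 6 in each direction, beside 39.9% of all tested genes. The median log2 difference of the 26 was -0.06 and that of all tested genes was 0.10, and the median size without sign was 0.35 for the 26 and 0.24 for all. The count of altered transporters was 2 without the second control library and 3 without any one of the Ras-induced libraries.

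**Figure D2:**
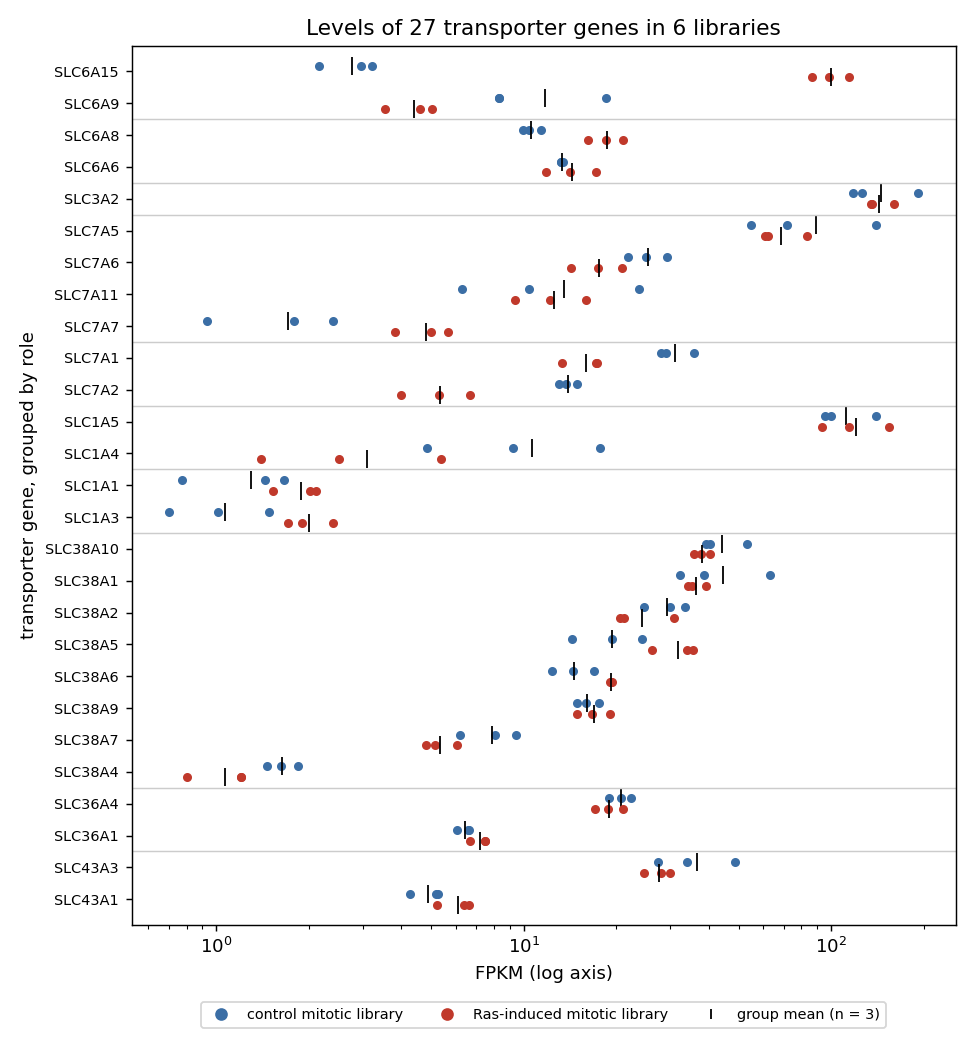
FPKM on a log axis for the 27 transporter genes, grouped by role, with 1 point per library (control blue, Ras-induced red, 3 each) and a tick at each group mean. SLC6A15 has the widest gap between groups, and SLC7A1 and SLC7A2 lie lower in all Ras-induced libraries.

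Both cationic carriers of SLC7 that passed the level limit, which bring in arginine, lysine and ornithine, fell after Ras induction. SLC7A1 (CAT1, ENSG00000139514, chromosome 13 from 30083551 to 30169825) measured 35.9, 29.1 and 27.9 FPKM in control and 13.3, 17.3 and 17.2 FPKM in Ras-induced cells. Its log2 difference was -0.92 (standard error 0.14, adjusted p = 0.00994, limma), from 31.0 ± 4.33 to 15.9 ± 2.27 FPKM (SD, n = 3). SLC7A2 (CAT2, ENSG00000003989) measured 15, 13.8 and 13.0 FPKM in control and 6.69, 3.99 and 5.29 FPKM in Ras-induced cells. The groups did not overlap for either gene. The log2 difference of SLC7A2 was -1.26 (standard error 0.17, adjusted p = 0.00645, limma), and both genes kept an adjusted p at or under 0.05 under every alternative fit. SLC7A1 was under the limit where an absolute log2 difference of at least 1 was also required. The summed level of both carriers was 44.9 ± 5.28 FPKM in control and 21.3 ± 1.25 FPKM in Ras-induced cells (SD, n = 3). The other cationic or related SLC7 genes, SLC7A3, SLC7A4 and SLC7A14, were under 1 FPKM in every library.

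The heavy subunit SLC3A2, known as 4F2hc or CD98, was the most abundant transporter by mean FPKM, and its groups overlapped. It measured 191.8, 117.8 and 126.5 FPKM in control and 135.7, 160.0 and 134.6 FPKM in Ras-induced cells. The log2 difference was 0.01 (standard error 0.19, adjusted p = 0.975, limma). Among its light subunits, SLC7A5 (LAT1), an exchanger of leucine and other large neutral amino acids, measured 140.3, 72.1 and 54.7 FPKM in control and 62.2, 83.5 and 61.0 FPKM in Ras-induced cells. Its first control library stood above all others, and its log2 difference was -0.27 (standard error 0.33, adjusted p = 0.614, limma). Reads of SLC7A5 can be shared with its near-identical copies, of which SLC7A5P2 had 4.56 ± 2.22 FPKM and SLC7A5P1 1.69 ± 0.687 FPKM in control cells (SD, n = 3).

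SLC7A7 (y+LAT1, ENSG00000155465, chromosome 14 from 23242431 to 23299029), which exchanges cationic for neutral amino acids, rose from a low level. It measured 2.39, 1.79 and 0.933 FPKM in control and 5.0, 5.65 and 3.80 FPKM in Ras-induced cells, with no overlap. The log2 difference was 1.13 (standard error 0.24, adjusted p = 0.0265, limma), and the call was lost without the second control library or any one of the Ras-induced libraries, and with no limit on low values. SLC7A6 (y+LAT2), which carries out the same kind of exchange, had 25.0, 29.3 and 21.8 FPKM in control and 20.9, 17.4 and 14.3 FPKM in Ras-induced cells. Its groups did not overlap, with the lower values after induction, and its adjusted p was 0.0784 (limma). After quantile or common upper-quartile scaling SLC7A6 was called, with a log2 difference of -0.61 and -0.62 (adjusted p = 0.0451 and 0.0452, limma). SLC7A11 (xCT), which brings in cystine in exchange for glutamate, had 23.7, 10.4 and 6.30 FPKM in control and 16, 12.2 and 9.39 FPKM in Ras-induced cells, so the control libraries spanned the whole range of the others.

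As light and heavy subunits work as pairs, their levels were also compared within each library. The ratio of SLC7A5 to SLC3A2 was 0.732, 0.612 and 0.433 in control and 0.458, 0.522 and 0.453 in Ras-induced cells. The log2 ratio differed by -0.28 (exact permutation test, two-sided p = 0.4, where the smallest p that 3 against 3 libraries allow is 0.1). For SLC7A11 to SLC3A2 the ratios were 0.124, 0.0885 and 0.0498 in control and 0.118, 0.0762 and 0.0698 in Ras-induced cells, and the log2 ratio differed by 0.07 (exact permutation test, two-sided p = 1). With 1 library left out, the difference ranged from -0.49 (without the third control) to -0.11 (without the first control) for SLC7A5, and from -0.29 to 0.37 (without the same libraries) for SLC7A11, whose direction thus turned. With 3 libraries in each group neither ratio could have passed a threshold of 0.05.

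Outside the amino acid carriers proper, SLC6A8, the creatine carrier (ENSG00000130821, chromosome X from 152953381 to 152962043), rose after induction. It measured 10.4, 9.91 and 11.4 FPKM in control and 18.6, 16.2 and 21.1 FPKM in Ras-induced cells, with no overlap. The log2 difference was 0.76 (standard error 0.12, adjusted p = 0.0099, limma), and the adjusted p was 0.0543 without the second control library. SLC6A10P, its near-identical copy, was listed at 0.0575 ± 0.0213 FPKM in control cells (SD, n = 3), and reads shared between them could be counted at either. SLC6A6, the taurine carrier, had 13.3, 13.4 and 13.2 FPKM in control and 17.2, 11.8 and 14.1 FPKM in Ras-induced cells, around the control values on both sides.

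SLC6A9 (GlyT1, ENSG00000196517, chromosome 1 from 44457172 to 44497139), the glycine carrier, fell. It measured 18.5, 8.33 and 8.29 FPKM in control and 4.58, 5.05 and 3.53 FPKM in Ras-induced cells. The first control library was more than 2 times either of the others, and all control libraries were above all Ras-induced ones. The log2 difference was -1.15 (standard error 0.30, adjusted p = 0.0469, limma). Without the first control library it was -0.80 (adjusted p = 0.0558, limma), and the call was lost without any one of the 6 libraries. With all 6 it was also lost under lower level limits (adjusted p = 0.0638 at 0.1 FPKM and 0.121 with none) and without the trend (0.0594, limma).

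Of the neutral exchangers of SLC1, SLC1A5 (ASCT2), which takes up glutamine and other small neutral amino acids, was abundant and overlapped between groups. It measured 140.4, 99.7 and 95.6 FPKM in control and 93.5, 154.5 and 114 FPKM in Ras-induced cells, with a log2 difference of 0.10 (standard error 0.22, adjusted p = 0.782, limma). That difference had no stable direction, as it was 0.27 without the first control or the first Ras-induced library and -0.09 without the second Ras-induced library. SLC1A4 (ASCT1), an exchanger of alanine, serine and cysteine, had 17.8, 9.23 and 4.86 FPKM in control and 2.51, 5.37 and 1.40 FPKM in Ras-induced cells. It had the largest difference of the 26 genes without regard to sign, -1.46 on the log2 scale with a standard error of 0.50, but its libraries spread widely and its adjusted p was 0.0933 (limma). The glutamate carriers were near the level limit. SLC1A1 (EAAT3) had 1.44, 0.775 and 1.66 FPKM in control and 2.11, 1.53 and 2.02 FPKM in Ras-induced cells, and SLC1A3 (EAAT1) had 1.01, 0.703 and 1.48 FPKM in control and 1.72, 1.90 and 2.39 FPKM in Ras-induced cells. SLC1A3 did not overlap between groups and SLC1A1 did, and neither was called.

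The SLC38 family, which includes the sodium-coupled glutamine and alanine carriers, held 8 of the 27 genes, and none was altered in the main fit. SLC38A10, a widely expressed gene of little-known function, was the most abundant of them by mean FPKM, with 40.2, 39.2 and 53.2 FPKM in control and 35.9, 40.4 and 37.7 FPKM in Ras-induced cells. Its log2 difference was -0.20 (standard error 0.13, adjusted p = 0.328, limma), and without the third control library it was -0.06. SLC38A1 (SNAT1) had 63.1, 38.5 and 32.1 FPKM in control and 34.3, 39.1 and 35.4 FPKM in Ras-induced cells, where only the first control library stood apart. SLC38A2 (SNAT2), which cells raise when amino acids run short, had 33.3, 24.6 and 29.9 FPKM in control and 30.9, 20.6 and 21.2 FPKM in Ras-induced cells, and its groups overlapped.

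Within the family, SLC38A5 and SLC38A6 had every Ras-induced library above every control library. SLC38A5 (SNAT5), a carrier of glutamine, serine and glycine, had 14.4, 19.3 and 24.3 FPKM in control and 26.2, 35.5 and 33.9 FPKM in Ras-induced cells, with an adjusted p of 0.0583 (limma) that became 0.0482 with a pseudocount of 0.1 and 0.0458 without the third control library. SLC38A6 had 12.3, 14.4 and 17.0 FPKM in control and 19.3, 19.1 and 19.3 FPKM in Ras-induced cells, with an adjusted p of 0.071 (limma). It was called under 1 of 14 fits, without the third control library (adjusted p = 0.0346, limma). After quantile and common upper-quartile scaling its adjusted p was 0.182 and 0.205 (limma). SLC38A7 and SLC38A4 lay the other way without overlap. SLC38A7 (SNAT7), which exports glutamine and asparagine from lysosomes, had 8.06, 6.21 and 9.44 FPKM in control and 6.05, 4.82 and 5.15 FPKM in Ras-induced cells. SLC38A4 (SNAT4) had 1.46, 1.85 and 1.62 FPKM in control and 1.20, 0.803 and 1.20 FPKM in Ras-induced cells. Neither was called. SLC38A9, the arginine sensor of lysosomes that acts on mTORC1, had 15.9, 14.9 and 17.6 FPKM in control and 14.9, 19.1 and 16.7 FPKM in Ras-induced cells, and its groups overlapped.

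No gene of the proton-coupled and uniporter families was altered. SLC36A1 (PAT1), found on lysosomes, had 6.66, 6.56 and 6.05 FPKM in control and 7.46, 7.46 and 6.70 FPKM in Ras-induced cells. SLC36A4 (PAT4) had 22.4, 20.8 and 18.9 FPKM in control and 17.1, 21.0 and 18.8 FPKM in Ras-induced cells. SLC36A1 did not overlap between groups by a narrow margin, SLC36A4 did, and neither was called. SLC43A1 (LAT3), a uniporter of large neutral amino acids, had 5.16, 4.25 and 5.26 FPKM in control and 6.66, 6.41 and 5.23 FPKM in Ras-induced cells. SLC43A3, better known for carrying purine nucleobases, had 33.9, 27.4 and 48.5 FPKM in control and 27.9, 24.6 and 29.9 FPKM in Ras-induced cells. The groups overlapped for both, and neither was called.

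**Figure D3:**
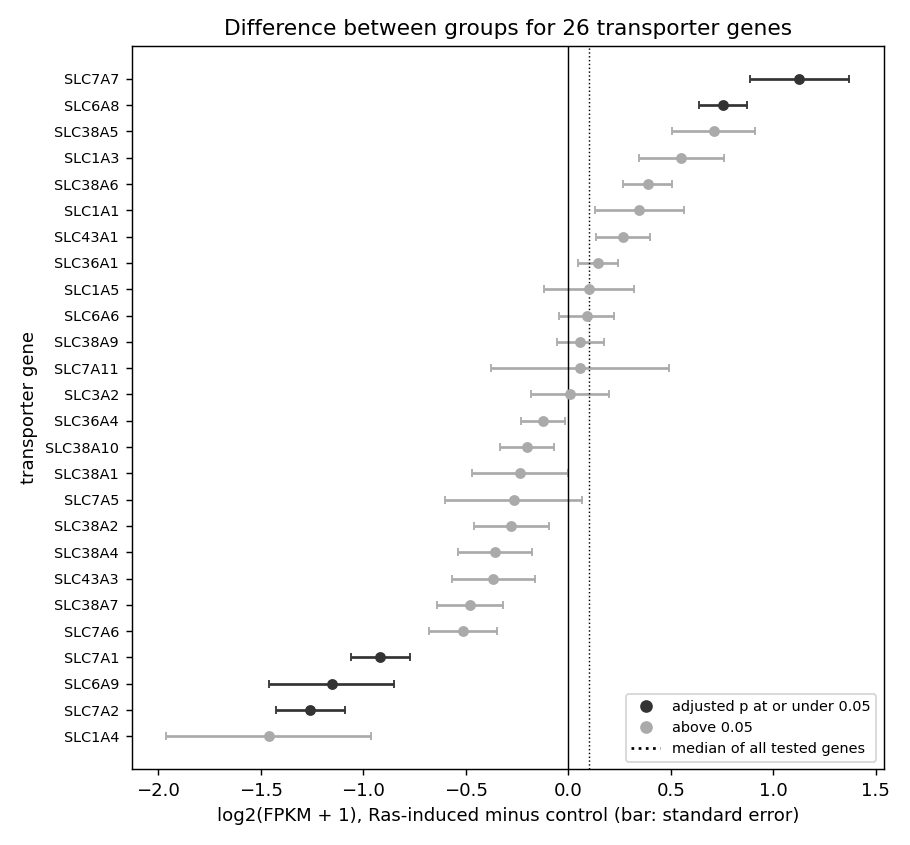
Difference in log2(FPKM + 1), Ras-induced minus control, for the 26 transporter genes other than SLC6A15, with bars of 1 standard error. The 5 dark points (SLC7A7, SLC6A8, SLC7A1, SLC6A9 and SLC7A2) have an adjusted p at or under 0.05, and the dotted line is the median of all tested genes at 0.10.

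The remaining 35 entries were under the level limit, 14 of them at 0 in every library and 21 above it. Nearest to the limit were SLC38A4 (mean 1.35 FPKM over 6 libraries) and SLC1A3 (1.53 FPKM) inside it, and SLC6A16 (0.597 FPKM) and SLC43A2 (0.464 FPKM) outside it. All 27 described genes had a mean of at least 1 FPKM in both groups, so none passed through one group alone. The entries at 0 included second entries of SLC38A5 and SLC6A8, whose other entries were measured. In no library did the glutamate carriers SLC1A2, SLC1A6 and SLC1A7 exceed 0.352 FPKM, the heavy subunit SLC3A1 and the light subunits SLC7A8, SLC7A9, SLC7A10 and SLC7A13 0.35 FPKM, SLC38A3, SLC38A8 and SLC38A11 0.0453 FPKM, or SLC36A2 and SLC36A3 0.104 FPKM. SLC43A2 (LAT4), a uniporter of large neutral amino acids, was at most 0.916 FPKM. Neurotransmitter carriers of SLC6, such as those of serotonin, dopamine and noradrenaline, were at most 0.217 FPKM in any library.

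Several transporters were highest in the same control library, and some of them also shared their highest Ras-induced library, a pattern noticed after the values were seen. SLC7A11, SLC6A9, SLC7A5, SLC1A4, SLC38A1 and SLC3A2 were at least 1.5 times higher in the first control library than in either other control library. These are 6 of the 27 genes (22.2%), beside 3.49% of all tested genes. The genes that were highest in the first control library and, among the Ras-induced ones, in the second numbered 10 of 27 (37%), beside 12.6% of all tested genes. Among the 6 genes with the C/EBP-ATF letters shown above, 5 (all but SLC1A3) were highest in these libraries, as were 5 of the 16 genes with a RefSeq entry and no match. SLC7A1 is among the 5 by a near tie, with 17.3 FPKM in the second and 17.2 FPKM in the third Ras-induced library. The motif and the pattern were both picked with the values known, and a link between them was not tested. The genes of a family can share regulation and are not independent of each other.

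The amino acid shortage response, a list of 16 genes around ATF4, of which 15 were tested, stood high in the same control library. It was the highest control library for 14 of the 15, whereas it was so for 36.1% of all tested genes, and 6 of the 15 were highest both there and in the second Ras-induced library. ATF4 measured 354.9, 243.8 and 125.7 FPKM in control and 114.1, 300.1 and 123.5 FPKM in Ras-induced cells, highest in the first control library and the second Ras-induced one. TRIB3, an ATF4 target that restrains the response, had 20.7, 7.41 and 5.89 FPKM in control and 11.3, 20.8 and 17.2 FPKM in Ras-induced cells. ASNS, which makes asparagine, had 100.3, 39.4 and 52.3 FPKM in control and 94.4, 48.9 and 77.7 FPKM in Ras-induced cells, so its highest Ras-induced library was the first and not the second. Of the 17 tested synthesis enzymes, a separate list, 8 were highest in the first control library among the controls. One of them, PSAT1 of serine synthesis, had 43.9, 15 and 10.5 FPKM in control and 15.8, 22.0 and 13.4 FPKM in Ras-induced cells. These 4 genes were named after their values were seen, and what raised the genes in these libraries was not tested.

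**Figure D4:**
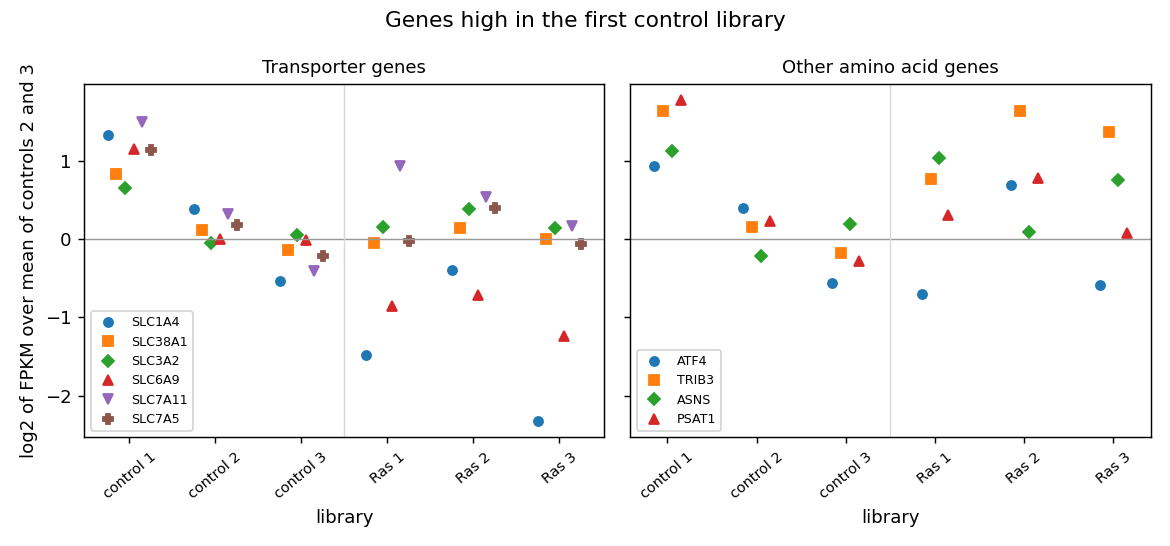
Log2 of FPKM over the mean of the other control libraries, by library, for 6 transporters (left) and 4 other genes of amino acid supply (right, ATF4, TRIB3 and ASNS of the shortage response and PSAT1 of serine synthesis), 1 point per gene and library. The 6 transporters were chosen for being high in the first control library, and the 4 other genes after their values were seen. All 10 genes thus lie above 0 there by choice. SLC1A4 and SLC6A9 lie below 0 in every Ras-induced library.

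Results that rest on the first control library were recomputed without it. SLC7A5 moved from a log2 difference of -0.27 to 0.12 (adjusted p = 0.725), SLC7A11 from 0.06 to 0.54 (adjusted p = 0.288), SLC38A1 from -0.23 to 0.04 (adjusted p = 0.844) and SLC3A2 from 0.01 to 0.23 (adjusted p = 0.239), all from limma and none called. SLC1A4 moved from -1.46 to -1.04 (adjusted p = 0.232, limma). The first control was not the one library that these values rest on, since without the third control SLC7A5 was at -0.56 and SLC7A11 at -0.34. SLC7A1 and SLC7A2, with log2 differences of -0.81 and -1.21, were still called (adjusted p = 0.0416 and 0.0405, limma).

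Other genes of amino acid use were read from lists, beside the 16.7% of all tested genes called, 11.0% higher and 5.67% lower. The median log2 difference of all tested genes was 0.10. Of the shortage response, CEBPB rose by 1.14 on the log2 scale and EIF2S1, a subunit of the translation factor eIF2, by 0.39, while NUPR1, a stress-response gene, fell by 1.72 (adjusted p = 0.0149, 0.0261 and 0.0128, limma), and the list's median was 0.22. Of 17 tested synthesis enzymes, ASL, of arginine synthesis, rose by 0.38 and PYCR1, of proline synthesis, fell by 0.50 (adjusted p = 0.0445 and 0.0183, limma), with a median of 0.10. Of 13 tested breakdown enzymes 4 rose and none fell, with a median of 0.16. Among them KYNU, of tryptophan breakdown, rose by 1.59 and GCSH, of the glycine cleavage system, by 0.63 (adjusted p = 0.0141 and 0.00921, limma). Without the first Ras-induced, the third Ras-induced or the first control library, 2, 1 and 2 breakdown enzymes were called.

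Of 24 tested genes of amino acid sensing to mTORC1, 5 were called higher and none lower, beside 11.0% and 5.67% of all tested genes. The median of the 24 was 0.23, and that of all tested genes 0.10. FLCN rose by 0.59 and the Rag GTPase RRAGC by 0.51 (adjusted p = 0.0334 and 0.0318, limma). The other called genes were LAMTOR5 (0.49), NPRL3 (0.41) and RRAGA (0.38). RHEB lay lower in every Ras-induced library, at -0.48, and was not called (adjusted p = 0.0594, limma). Scaling to a common upper quartile or to quantiles left 2 called genes, fitting with no limit on low values left 0, and fitting without the trend left 3. Without the first, the second or the third Ras-induced library 0, 3 and 0 were called, and without the first or the second control library 1 and 0. Of 12 tested other carriers, which include mitochondrial ones, SLC25A22 rose by 0.53, SLC25A38 by 0.51 and SLC25A29 fell by 0.57 (adjusted p = 0.0309, 0.034 and 0.0288, limma), with a median of 0.25. Scaling to a common upper quartile or to quantiles left 1 called gene, and fitting with no limit on low values left 0. None of the other carriers was called without any one of the Ras-induced libraries or the first or second control library, and 1 was without the third control library. The shortage response lost all 3 calls without the second or the third Ras-induced or the second control library. The synthesis enzymes had 0 calls without the third Ras-induced or the second control library and 1 call without any one of the others or after either scaling, and 1 at lower level limits, without the trend or with the replicate block.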

How the data were processed

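Poly(A) RNA of 3 control and 3 Ras-induced mitotic samples was sequenced as paired ends. The authors trimmed reads (Trim Galore 0.3.0), mapped them with TopHat2 (hg19, Ensembl build 73), and deposited FPKM values per gene and library from Cufflinks; strand handling is not given in the sources used here, so antisense overlap cannot be told apart. Their Cuffdiff table (group FPKM, log2 fold change, test statistic, p-value and q-value) was not used. Columns name a group and a number but no sample. A further 18 unnamed columns hold extra values of 120 genes, which were left out (no transporter among them).

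The 13993 of 63009 genes that averaged 1 FPKM or more were fitted with limma 3.58.1 (R 4.3.3, mean-variance trend) on log2(FPKM + 1), a scale that understates changes of low genes. P-values were two-sided and Benjamini-Hochberg adjusted over all 13993 genes; they measure the spread between these samples, which the labels do not tie to separate cultures, although the paper says that the experiment was repeated independently. The fit was tested on simulated data. Partner ratios were compared by exact permutation. Genes given with values were all 27 over the limit, with fitted values for altered genes and the 5 most abundant (those of other transporters were added after their values were seen), and from each list the 2 largest rises and falls among called genes. ATF4, TRIB3, ASNS, PSAT1, the remaining called mTORC1 genes, RHEB and the cell type markers given with values were added after their values were seen. The members and lists were chosen with earlier results of these data known. Coordinates are GENCODE 44 on GRCh37, except RefSeq promoters. Tables were made with pandas 2.3.3, exact tests with scipy 1.17.1, and plots with matplotlib 3.10.9, under Python 3.11.15. Alternatives were a pseudocount of 0.1, other level limits, no trend, quantile and upper-quartile scaling, a replicate block and each library left out.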

Additional observations from a re-analysis of the deposited data

How the results depend on the processing

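Over the main and alternative fits (14 in all), SLC7A1 and SLC7A2 were called under all 14, SLC6A8 under 13, SLC7A7 under 9 and SLC6A9 under 5. No direction of an altered transporter reversed. The count of altered transporters (5) was 3 with no limit on low values and 3 when an absolute log2 difference of at least 1 was also required, which SLC7A1 and SLC6A8 did not reach, and ranged from 2 to 6 with 1 library left out (2 without the second control, 3 without any one Ras-induced library). The median log2 difference of the 26 transporters (-0.06) was -0.16 after scaling to a common upper quartile, where the median of all genes moved from 0.10 to 0.00, and ranged from -0.13 to 0.070 with 1 library left out (0.070 without the first control). Over all genes, 2336 calls became 1518 with no limit and between 860 and 1872 with 1 library left out. Whether the column numbers 1 to 3 pair the libraries is unknown. Deviations from the group means correlated at -0.00266 to 0.0481 for same-numbered libraries and at -0.0679 to 0.0311 for differently numbered ones. These low and overlapping values cannot decide it. With the replicate block 7 transporters were called, SLC38A5 and SLC7A6 (adjusted p = 0.0208 and 0.0485, limma) in addition. The cause of these changes was not tested. FPKM gives no read counts, so what depth limits is unknown beyond the libraries' estimated relative depth, and 3 libraries a group allow no exact p under 0.1.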
